A study of Mus musculus with 16 samples.

Results

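Tmem37 and 7 genes around it on mouse chromosome 1 were followed in whole testes and whole ovaries of germ-free (GF) and conventionally raised (CV) mice. The 8 genes (Gli2, Ralb, Ptpn4, Tmem177, Sctr, Tmem37, Dbi and Steap3, in the order of the chromosome) are 8 of the 38087 genes in the deposited table of exon counts. They were chosen by symbol among genes of a 3 Mb stretch of that chromosome, with their GF over CV differences already known, so their GF over CV values and calls below are a description and support nothing. Differences between testis and ovary were not used in the choice and were tested, but they rest on the same libraries. For Tmem37, Steap3 and Dbi, which were called higher in GF testes, they are given without a p. The samples were 3 GF testes, 4 CV testes, 5 GF ovaries and 4 CV ovaries, each 1 total RNA library. All donors were C57BL/6j mice of 15 to 16 weeks fed ad libitum, males for testes and females for ovaries, with tissue taken at zeitgeber time 2 to 4 (hours after lights on). GF mice are bred and kept without microbes, whereas CV mice carry an ordinary gut microbiota. Tissue and sex are 1 factor here, and neither a colony, a cage nor a cycle stage of the females is given. Whether each library came from its own animal is not stated in the labels, so the p-values measure library-to-library spread, which may be technical.

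The 8 genes share a chromosomal neighbourhood and not a pathway. Tmem37 encodes a membrane protein related to the gamma subunits of voltage-gated calcium channels. Dbi encodes the acyl-CoA binding protein, also called diazepam binding inhibitor, which carries fatty acyl-CoA esters, binds the mitochondrial protein TSPO and has been studied in steroid-making cells. Steap3 encodes an endosomal reductase that turns ferric into ferrous iron after uptake of transferrin. Sctr encodes the G protein-coupled receptor for the hormone secretin. Gli2 encodes a zinc finger transcription factor at the end of the hedgehog pathway, and Ralb a RAS-like small GTPase that acts through the exocyst. Ptpn4 encodes a tyrosine phosphatase with a FERM domain, and Tmem177 a mitochondrial membrane protein that takes part, in human cells, in making cytochrome c oxidase subunit 2.

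In GRCm38, with positions from GENCODE M21, Tmem37 (ENSMUSG00000050777) occupies chr1:120067377-120074074 on the minus strand. Dbi (ENSMUSG00000026385, chr1:120113280-120121078) starts 47.0 kb from the Tmem37 start and Steap3 (ENSMUSG00000026389, chr1:120190757-120272705) 198.6 kb from it, both on the minus strand. On the other side lie Sctr (ENSMUSG00000026387, chr1:120006894-120063536, plus strand), Tmem177 (ENSMUSG00000036975, chr1:119907890-119913208, minus), Ptpn4 (ENSMUSG00000026384, chr1:119652467-119837613, minus), Ralb (ENSMUSG00000004451, chr1:119470305-119504794, minus) and Gli2 (ENSMUSG00000048402, chr1:118834132-119053619, minus). Exons of these 8 genes share 0 bases with exons of any other annotated gene, so reads over their exons have no annotated second owner on either strand.

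Promoter sequences of 7 of the 8 genes were matched by symbol in RefSeq (GRCm38.p6), each from 250 bases before to 50 bases after a start site. Those of Tmem37 and Steap3, which were higher in GF testes, and of Tmem177, a near neighbour with lower values there but no call, are given 5′ to 3′ on the minus strand. Capitals mark matches to any of 7 motifs searched on both strands: TGAGTCA (AP-1), TGACGTCA (CRE), GGGCGG (GC box), CAAGGTCA (SF-1), CACGTG (E box), CCAAT and TATAAA. The start sites used are those of chr1:120073731-120074030 for Tmem37, chr1:120271031-120271330 for Steap3 and chr1:119913134-119913433 for Tmem177.
Tmem37: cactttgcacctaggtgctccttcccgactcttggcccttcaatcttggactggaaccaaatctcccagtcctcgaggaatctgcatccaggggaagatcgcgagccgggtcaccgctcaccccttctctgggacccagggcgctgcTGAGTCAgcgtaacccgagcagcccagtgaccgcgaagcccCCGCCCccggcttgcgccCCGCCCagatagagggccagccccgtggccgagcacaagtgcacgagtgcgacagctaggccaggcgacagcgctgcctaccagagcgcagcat
Steap3: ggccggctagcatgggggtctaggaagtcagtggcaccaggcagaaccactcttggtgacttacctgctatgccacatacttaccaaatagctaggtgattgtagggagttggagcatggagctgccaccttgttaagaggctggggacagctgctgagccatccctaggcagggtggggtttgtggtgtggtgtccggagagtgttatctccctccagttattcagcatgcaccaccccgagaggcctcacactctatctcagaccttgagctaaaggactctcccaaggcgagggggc
Tmem177: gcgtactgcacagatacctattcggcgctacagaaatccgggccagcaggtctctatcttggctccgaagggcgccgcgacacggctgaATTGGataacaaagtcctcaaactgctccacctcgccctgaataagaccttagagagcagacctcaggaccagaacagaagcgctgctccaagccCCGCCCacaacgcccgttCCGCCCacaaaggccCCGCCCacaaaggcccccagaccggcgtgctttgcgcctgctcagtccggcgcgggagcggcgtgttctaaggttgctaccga
The Tmem37 window held 1 AP-1 match, at -103 from the start site, and GC boxes at -62 and -44. AP-1 letters occur in 5.2% and GC boxes in 35.7% of the 32851 promoters of that table. The outermost of 4 Steap3 windows, the one printed, held 0 matches. The one at chr1:120270221-120270520 held a GC box at -56, and the one at chr1:120265237-120265536 held GC boxes at -142, -46 and -42. The one at chr1:120258829-120259128 held a CCAAT match at -18. The Tmem177 window held GC boxes at -66, -48 and -33 and a CCAAT match at -161, a motif found in 37.4% of promoters. No motif was shared by the printed windows of Tmem37 and Steap3, but Steap3 windows that are not printed held the GC box, as the Tmem37 window did. Neither window of Dbi, which was also called higher in GF testes, held a GC box. GC boxes were also held by the windows of Gli2 (at -157) and Ralb (at -216 and 32), genes that were not called.

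The libraries held 26015487 to 27188919 counts in GF testes, 25880591 to 28266867 in CV testes, 13294039 to 15907297 in GF ovaries and 12912251 to 15141027 in CV ovaries. Levels are CPM, counts scaled to a common library total with TMM factors from all 16 libraries, and a gene is said to be called at a Benjamini-Hochberg adjusted p under 0.05 in edgeR's quasi-likelihood test. The tissue labels matched the levels of 6 spermatid markers, whose summed level was 15419 to 16590 CPM in GF testes and 16124 to 17297 CPM in CV testes, but 0.344 to 1.64 CPM in GF ovaries and 0.848 to 1.3 CPM in CV ovaries. The 6 oocyte markers summed to 12.8 to 15.5 CPM in GF testes, 14.2 to 15.6 CPM in CV testes, 94.8 to 164 CPM in GF ovaries and 100.1 to 174 CPM in CV ovaries. These are bulk tissues, in which fewer cells of a type and less RNA per cell cannot be told apart.

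**Figure D1:**
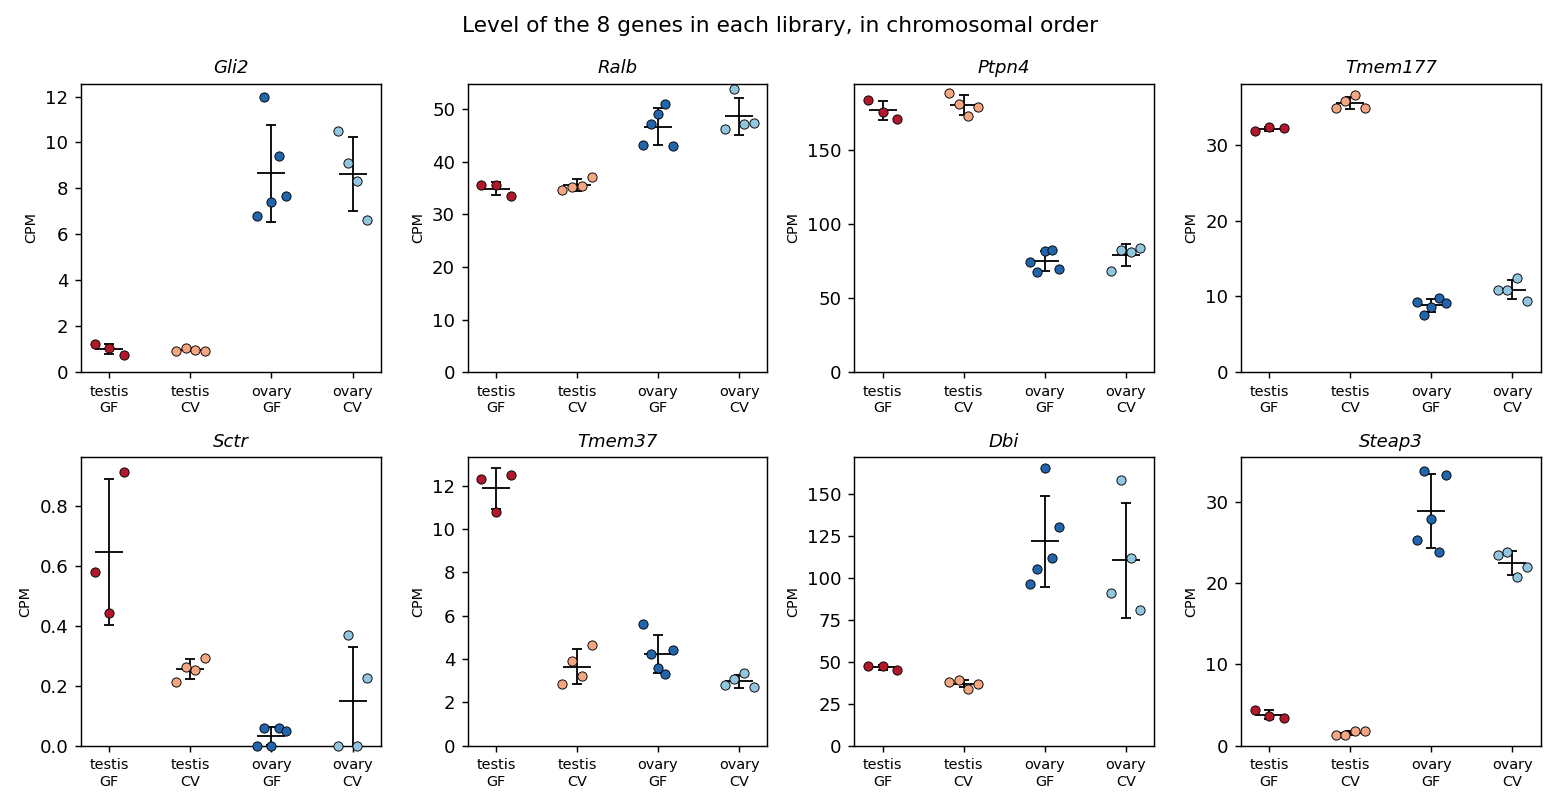
Level in CPM (linear axis from 0) of each gene in each of the 16 libraries, with testis GF, testis CV, ovary GF and ovary CV from left to right in each panel; points are libraries, and the bar and whiskers are the mean ± SD. Tmem37, Steap3, Dbi and Sctr lie higher in all 3 GF testes than in all 4 CV testes, while Tmem177 lies lower in GF testes, at 31.9 to 32.4 CPM.

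Among the 8 genes Tmem37 differed most between GF and CV testes. It stood at 12.3, 10.8 and 12.5 CPM in the GF testes (233, 219 and 246 counts), against 2.86, 3.93, 3.2 and 4.63 CPM in the CV testes (54, 75, 63 and 95 counts). Every GF testis lay above every CV testis with a wide gap between the groups. The log2 fold change was 1.71 (SE 0.126), or 3.27-fold, from means of 11.9 ± 0.952 CPM in GF testes and 3.66 ± 0.789 CPM in CV testes (SD, n = 3 and 4). In the ovary Tmem37 stood at 5.6, 4.23, 3.61, 3.29 and 4.41 CPM in GF mice, against 2.8, 3.07, 3.36 and 2.7 CPM in CV mice. Here 4 of the 5 GF ovaries lay above all CV ovaries and 1 lay inside their range, with a log2 fold change of 0.50 (SE 0.176).

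Steap3, the iron reductase, had the next largest difference in the testis among the tested members. Its levels were 4.43, 3.64 and 3.41 CPM in GF testes (84, 74 and 67 counts), against 1.38, 1.31, 1.78 and 1.85 CPM in CV testes (26, 25, 35 and 38 counts). The groups did not overlap, and the log2 fold change was 1.28 (SE 0.189), or 2.43-fold. Ovaries carried far more of it, with 25.3, 33.8, 27.9, 23.8 and 33.3 CPM in GF ovaries and 23.4, 23.8, 20.7 and 21.9 CPM in CV ovaries. The GF ovaries were spread widely and their lowest library met the highest CV library, with a log2 fold change of 0.36 (SE 0.112).

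Dbi, the acyl-CoA carrier between them on the chromosome, differed in the same direction but by less. It stood at 47.3, 47.6 and 45 CPM in GF testes, against 37.8, 39.1, 33.9 and 36.8 CPM in CV testes. The 2 groups did not overlap, and replicates were tight, so that a log2 fold change of 0.36 came with an SE of 0.0551. In the fit over all 16 libraries, where ovaries and testes share 1 estimate of the spread, Dbi had 0.34 in the testis and was not called. In ovaries Dbi varied from library to library far more than between groups, with 96.4, 105, 165, 112 and 130 CPM in GF ovaries and 90.9, 158, 112 and 80.5 CPM in CV ovaries (log2 fold change 0.14, SE 0.221).

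Sctr, the secretin receptor, had too few counts to be tested in any fit. It had 11, 9 and 18 counts in the GF testes (0.58, 0.443 and 0.916 CPM), against 4, 5, 5 and 6 counts in the CV testes (0.212, 0.262, 0.254 and 0.293 CPM). All GF testes lay above all CV testes, and the summed counts of 38 in GF and 20 in CV testes gave a ratio of depth-scaled counts of 2.52 (95% exact interval 1.43 to 4.57, counting error only). In ovaries the counts were 0, 1, 0, 1 and 1 in GF and 0, 7, 0 and 4 in CV mice, so the receptor was at or near 0 in most ovaries of either group. Their depth-scaled ratio was 0.215 (0.0385 to 0.814), and 2 CV libraries supplied all 11 CV counts.

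Tmem177, the mitochondrial assembly factor, had lower values in GF testes. It stood at 31.9, 32.4 and 32.3 CPM in GF testes, against 35.0, 35.8, 36.7 and 35.0 CPM in CV testes, and at 9.23, 7.52, 8.63, 9.76 and 9.12 CPM in GF ovaries, against 10.9, 10.9, 12.5 and 9.38 CPM in CV ovaries. The testis groups did not overlap, although the log2 fold change of -0.13 (SE 0.0565) was small and not called. In the ovary 1 GF library lay above the lowest CV library, and the log2 fold change was -0.30 (SE 0.112).

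The other 3 genes lay within the spread of their replicates. Ptpn4, the FERM phosphatase, had 184, 176 and 171 CPM in GF testes, against 189, 181, 173 and 179 CPM in CV testes (log2 fold change -0.01), and 67.6 to 82.3 CPM in GF ovaries, against 68.1 to 84.2 CPM in CV ovaries (-0.07). Ralb, the small GTPase, had 35.6, 35.7 and 33.5 CPM in GF testes, against 34.6, 35.3, 35.5 and 37.1 CPM in CV testes (-0.01), and 43.0 to 51.1 CPM in GF ovaries, against 46.2 to 53.9 CPM in CV ovaries (-0.06). Gli2, the hedgehog factor, had 1.21, 1.03 and 0.763 CPM in GF testes, against 0.902, 1.05, 0.966 and 0.927 CPM in CV testes, so low that its log2 fold change of 0.08 came with an SE of 0.289. In ovaries Gli2 ran from 6.78 to 12.0 CPM in GF and from 6.63 to 10.5 CPM in CV mice. The GF and CV ranges overlapped for all 3 genes in both tissues.

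Counted over the list, 7 of the 8 genes passed the filter on low counts in each fit, Sctr being the one that did not. In the testis 3 of the 7 were called higher in GF mice (Tmem37, Steap3 and Dbi) and 0 lower, where 8.08% of the 20269 genes tested there were called, 3.67% higher and 4.41% lower. In the same tissue 3 of the 7 lay above and 1 below without overlap, against 6.81% and 10.6% of all genes tested. In the ovary 0 of the 7 were called by edgeR and 0 by DESeq2, where edgeR called 0.177% of 18095 genes, 0.111% higher and 0.0663% lower. There 3 of the 7 had an unadjusted p under 0.05, beside 1172 of the 18095 genes. In the testis 3939 of the 20269 genes had such a p. These are the background of every such count below, and nothing is read from those counts. The share of all genes that DESeq2 called is not given, so nothing is read from its counts either. None of the 7 had ovary groups free of overlap, against 2.76% of genes. GF over CV values of both tissues entered the choice of the genes, so nothing is read from these shares. The median log2 fold change of the 7 was 0.08 in the testis and -0.00 in the ovary, and that of all genes tested was 0.00 and 0.01.

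The GF over CV difference of the testis less that of the ovary was 1.19 (SE 0.248, log2) for Tmem37, 0.91 (SE 0.206) for Steap3 and 0.19 for Dbi. In the fit over all 16 libraries edgeR called 0 of 7 for that difference and DESeq2 called 2, where edgeR called 0.132% of 21977 genes, 0.0728% higher and 0.0592% lower. An unadjusted p under 0.05 was found for 2 of the 7, beside 1524 of the 21977 genes.

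In the testis the summed levels of some cell type markers did not overlap between the groups. The 6 macrophage markers summed to 111.1 to 117.6 CPM in GF testes, against 121.2 to 127.5 CPM in CV testes, and 0 of 6 were at 0 in either group. The 6 smooth muscle and myoid markers summed to 488 to 517 CPM in GF testes, against 540 to 554 CPM in CV testes, and the 6 spermatogonial markers to 100.5 to 106.5 CPM in GF testes, against 94.7 to 99.2 CPM in CV testes, again with 0 of 6 at 0. Leydig cell markers (1344 to 1369 CPM in GF testes, 1087 to 1470 CPM in CV testes) and Sertoli cell markers (1084 to 1122 CPM and 1109 to 1142 CPM) overlapped. Within the lists, edgeR called Piwil1 (log2 fold change 0.26) higher and Hspa2 (-0.08) lower among 6 spermatocyte markers, and Acrv1 (-0.16) and Spaca1 (-0.17) lower among 6 spermatid markers. It called 1 of 6 spermatogonial markers higher, 1 of 6 macrophage markers lower and 2 of 6 smooth muscle and myoid markers lower, of which DESeq2 called 1, 0 and 1. It also called 1 of 6 endothelial markers higher (Egfl7) and 1 of 4 tested oviduct and surface epithelium markers lower (Epcam). Among all single genes tested in the testis 8.08% were called and 17.4% had groups without overlap, so no shift of a cell type is read from these counts. Single members ran against their list's sum, as Kit did at 28.5 CPM in GF and 30.8 CPM in CV testes, and Mylk at 74.3 CPM in GF and 72.9 CPM in CV testes. The part of these in the differences of the 8 genes was not tested.

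**Figure D2:**
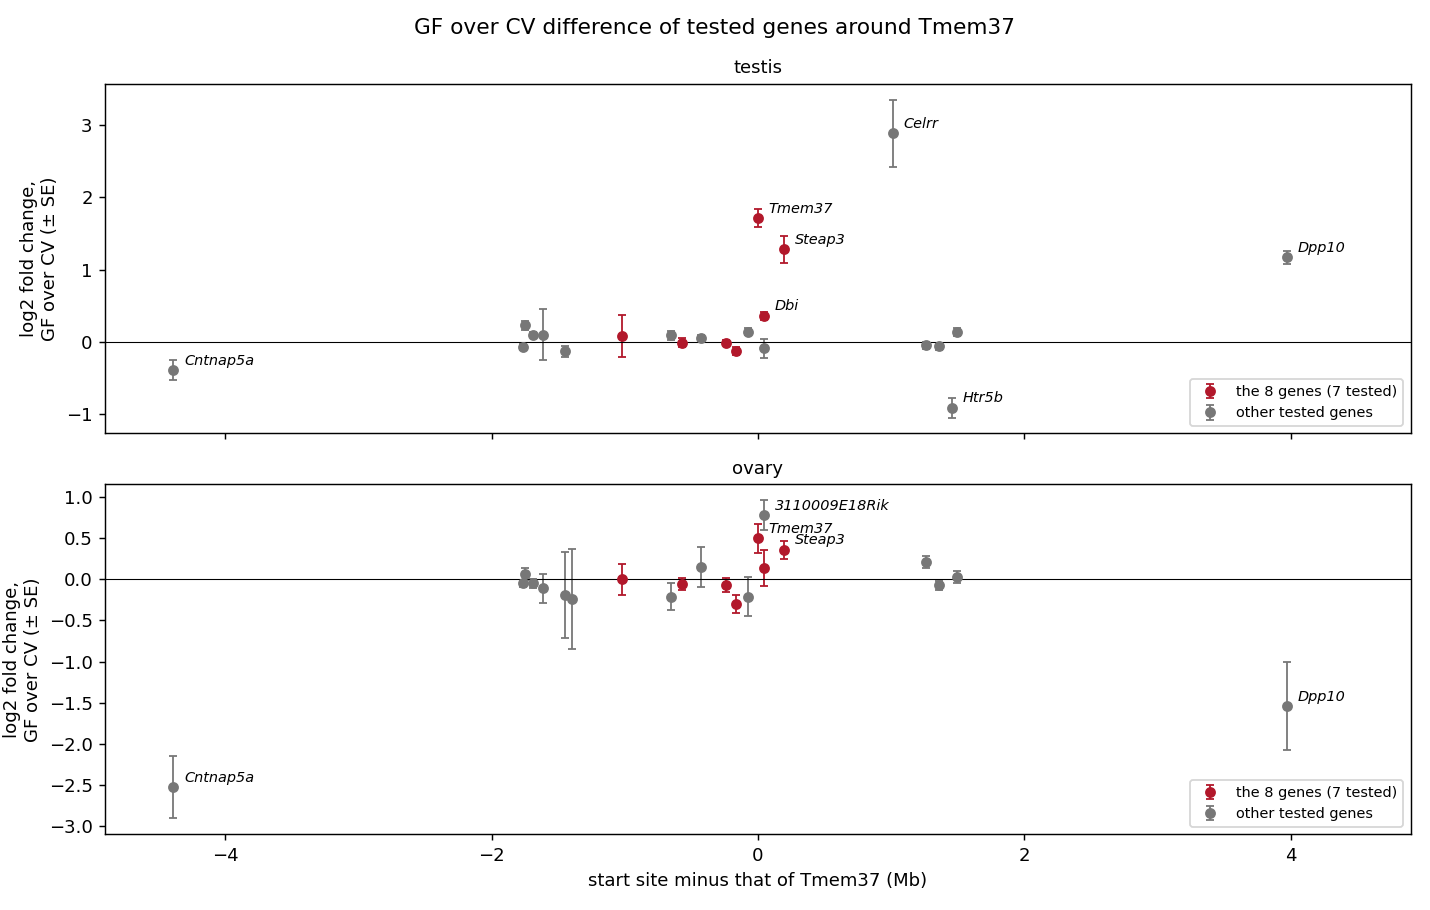
GF over CV log2 fold change (± SE, vertical axis) of each gene tested in the testis (top) and in the ovary (bottom) within a 10 Mb stretch, against the distance of its start site from that of Tmem37 in Mb; the tested members of the 8 genes are red and other genes grey. In the testis Tmem37 at 1.71, Steap3 at 1.28 and Dbi at 0.36 stand beside neighbours near 0, and the farther genes Celrr at 2.89, Dpp10 at 1.17 and Htr5b at -0.91 also lie away from 0.

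The genes between and around the 8 were then read across the whole 3 Mb stretch, which holds 62 annotated genes. Of these 29 were matched by gene identifier in the deposited table, from Tsn (starting at base 118294778) to En1 (ending at base 120607992). Genes whose identifier had no position are left out of these counts, among them Tmem185b (16.6 CPM in GF and 16.4 CPM in CV testes). In the testis 16 of the 29 were tested. Of those 5 were called higher and 0 lower in GF mice, where 3.67% and 4.41% of all genes were, and the 5 hold the 3 genes already chosen for that difference. Beside Tmem37, Steap3 and Dbi these were Nifk, a nucleolar partner of Ki-67 (log2 fold change 0.23), and Clasp1, a protein of microtubule plus ends (0.10). Clasp1 had an adjusted p of 0.049 in edgeR and 0.0781 in DESeq2, which called 4 of the stretch, and 3 to 4 were called when single libraries were left out (3 without GF testis 1). The named neighbours were not called in the testis. Inhbb, the beta B subunit of inhibin and activin, had 0.09 (31.0 CPM in GF testes and 29.4 CPM in CV testes), Epb41l5, a FERM protein of cell junctions, 0.05, and Cfap221, a protein of cilia and flagella, 0.14 (58.4 to 61.4 CPM in GF testes and 52.0 to 56.9 CPM in CV testes, without overlap). Insig2, a sterol-sensing regulator that lies just outside the stretch, had -0.05. In the ovary 17 genes of the stretch were tested, and edgeR and DESeq2 each called 0. An unadjusted p under 0.05 was found for 4, beside 1172 of all 18095 genes tested there. There Inhbb had -0.21, Epb41l5 0.15, Cfap221 -0.21 and Insig2 0.21.

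A neighbour outside the rule for named genes, 3110009E18Rik, was picked after its values were seen. It lies on the opposite strand beside Dbi, at a distance of 108 bases, and stood at 4.47, 3.7, 3.27, 3.87 and 2.79 CPM in GF ovaries, against 1.97, 1.85, 2.04 and 2.58 CPM in CV ovaries. Those groups did not overlap, as in 2.76% of genes tested in the ovary, and the log2 fold change of 0.78 (SE 0.182) was not called (adjusted p = 0.305), while the testis value was -0.09 (SE 0.134).

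Over a wider stretch of 10 Mb, which holds the 3 Mb one, 23 genes were tested in the testis. Of these 7 were called higher and 1 lower, where 8.08% of all genes tested there were called. Those calls include the 5 of the 3 Mb stretch, with the genes already chosen for that difference. Outside the 3 Mb stretch the called genes were Celrr, Dpp10 and Htr5b. The long noncoding RNA Celrr had 24, 25 and 14 counts in GF testes, against 3, 1, 1 and 6 in CV testes, a ratio of depth-scaled counts of 7.59 (95% exact interval 3.97 to 16.0). Dpp10, a protein that modulates potassium channels, had 16.1, 17.6 and 19.2 CPM in GF testes, against 8.06, 7.7, 8.03 and 7.85 CPM in CV testes. In the ovary Dpp10 went the other way, with a log2 fold change of -1.54 (SE 0.54), and was not called. Htr5b, a serotonin receptor gene, was lower, with 3.06, 3.98 and 3.61 CPM in GF testes, against 6.68, 7.23, 7.12 and 6.05 CPM in CV testes. For all 3 genes the GF and CV testes did not overlap, as for 17.4% of all genes tested. In the ovary 1 of 22 genes was called, Cntnap5a, a member of the contactin-associated protein family, at 0.295, 0.529, 0.564, 0.173 and 0.76 CPM in GF ovaries, against 4.15, 1.7, 2.7 and 2.3 CPM in CV ovaries (log2 fold change -2.53).

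Between tissues, which the choice of genes did not use, most members differed. In GF mice testes had more Tmem177, Tmem37 and Ptpn4 and less Steap3, Gli2, Dbi and Ralb than ovaries, so 3 of 7 were called higher and 4 lower, where 89.8% of the 21977 genes tested were called (46.1% higher, 43.7% lower). In CV mice 2 were called higher and 4 lower, where 90.3% of genes were called (46.3% higher, 44.0% lower), and Tmem37 was the member without a call. Free of overlap between tissues were 7 of the 7 in GF mice (3 higher, 4 lower), beside 86.9% of all genes tested (45.3% higher, 41.6% lower), and 6 of the 7 in CV mice (2 higher, 4 lower), beside 88.1% (45.7% higher, 42.5% lower). Most genes differ between these tissues, so the counts do not set the 8 genes apart from other genes. The counts also hold Tmem37, Steap3 and Dbi, chosen with their values in GF and CV testes known. The same shares, 89.8% in GF and 90.3% in CV mice, are the background of every count of family genes called between tissues below, and nothing particular to a family is read from such a count. Small tissue differences also hang on the scaling, since library totals without TMM put the median of all genes at -0.75 in GF and -0.76 in CV mice, where TMM puts it at 0.04 and 0.05.

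Steap3 and Gli2 had the widest gaps between tissues. Steap3 had a testis over ovary log2 fold change of -2.91 (SE 0.147) in GF mice and -3.82 (SE 0.15) in CV mice. The testis thus carried 3.83 ± 0.537 CPM, against 28.8 ± 4.57 CPM in the ovary, in GF mice (SD, n = 3 and 5), and 1.58 ± 0.276 CPM, against 22.5 ± 1.42 CPM, in CV mice (SD, n = 4 each). The inequality of the GF and CV log2 values equals the gap between the testis and ovary GF over CV values of Steap3. Those values entered the choice, so the inequality is a description, and edgeR did not call it. Gli2 had -3.10 (SE 0.236, adjusted p = 6.06e-10) in GF and -3.16 (SE 0.217, adjusted p = 1.26e-10) in CV mice. Dbi was lower in the testis by smaller steps, with -1.38 (SE 0.205) in GF and -1.58 (SE 0.194) in CV mice. Of these 4 genes Ralb differed least, with -0.42 (SE 0.0696, adjusted p = 1.99e-05) and -0.45 (SE 0.0666, adjusted p = 4.85e-06) in GF and CV mice. In all 4 genes every testis lay below every ovary of the same microbiota group.

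Tmem177 and Ptpn4 were the testis-rich members. Tmem177 had a log2 fold change of 1.86 (SE 0.0859, adjusted p = 3.63e-13) in GF and 1.71 (SE 0.0861, adjusted p = 1.3e-12) in CV mice, and Ptpn4 1.23 (SE 0.0731, adjusted p = 1.58e-11) and 1.19 (SE 0.0733, adjusted p = 2.44e-11). Every testis lay above every ovary of its microbiota group for both genes.

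Tmem37 had unequal tissue values in GF and CV mice. The inequality equals the gap between its testis and ovary GF over CV values, which entered the choice, so it is a description, and edgeR did not call it. In GF mice the testis was higher by 1.48 on the log2 scale (SE 0.168), with no overlap between tissues. In CV mice the difference was 0.30 (SE 0.18) and not called, with means of 3.66 ± 0.789 CPM in testes and 2.98 ± 0.296 CPM in ovaries (SD, n = 4 each). That CV value also hung on the scaling between tissues. It was 0.45 with DESeq2's size factors and 0.45 in DESeq2's Wald test, but -0.51 with library totals and no TMM. The GF value kept its sign, at 0.69 with library totals.

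**Figure D3:**
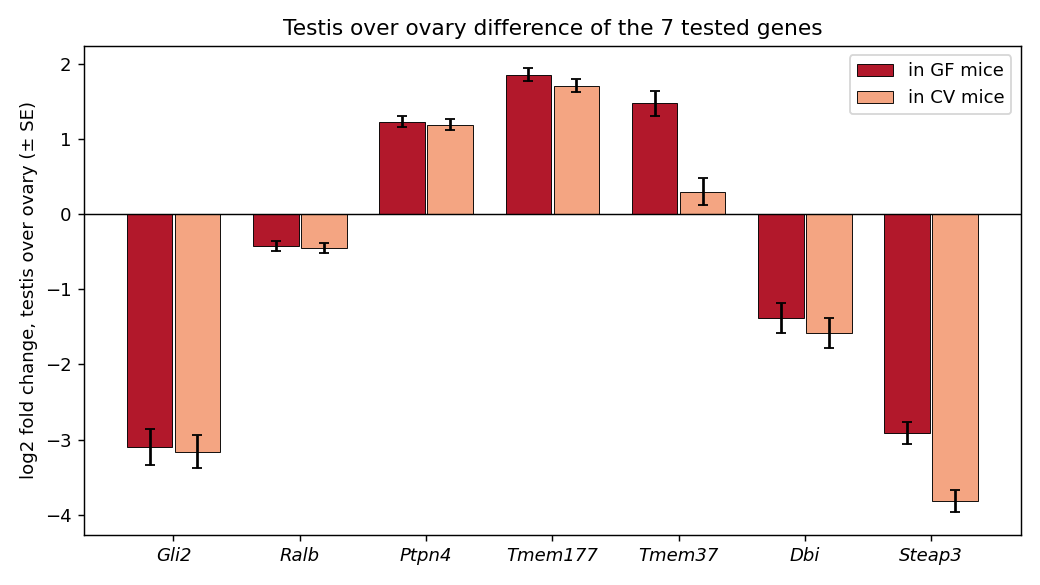
Testis over ovary log2 fold change (± SE, vertical axis) of the 7 tested genes, with GF mice left of CV mice in each pair of bars. Bars for GF and CV mice are of near equal height for Gli2, Ralb, Ptpn4, Tmem177 and Dbi. Tmem37 (1.48 in GF, 0.30 in CV) and Steap3 (-2.91 in GF, -3.82 in CV) have unequal pairs, an inequality that edgeR called for neither gene.

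Compared per kb of exon, Dbi had the highest level of the 8 in all 4 groups, at 32.8 ± 0.982 CPM per kb in GF testes, 26 ± 1.56 in CV testes, 85.6 ± 19.0 in GF ovaries and 77.5 ± 24.1 in CV ovaries. Below it the testis order was Ptpn4 and then Tmem177 in both groups. In GF testes Tmem37, at 9.05 ± 0.726 CPM per kb, had rank 4 and did not differ from Tmem177 (9.64 ± 0.0743) beyond its spread, with Ralb (7.09 ± 0.249), Steap3 (0.67 ± 0.0939), Sctr (0.321 ± 0.121) and Gli2 (0.146 ± 0.033) after it. In CV testes Tmem37 had rank 5, at 2.79 ± 0.602 CPM per kb, under Ralb (7.23 ± 0.216), and Gli2 (0.14 ± 0.00929) and Sctr (0.127 ± 0.0165) at the foot lay within their spreads. In ovaries the order after Dbi was Ralb, Ptpn4 and Steap3 in both groups. Tmem37, at 3.23 ± 0.679 CPM per kb in GF ovaries and 2.27 ± 0.226 in CV ovaries, and Tmem177, at 2.65 ± 0.254 in GF ovaries and 3.26 ± 0.377 in CV ovaries, changed places, and in GF ovaries lay within their spreads. Sctr was last in ovaries of both groups.

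Dbi belongs to a family of acyl-CoA binding proteins with testis-rich and ovary-rich members. Of 8 family genes tested, 3 were called higher and 4 lower in the testis in GF mice, and the same counts were found in CV mice, near the background share. The testis form Dbil5 had 1055 ± 19 CPM in GF testes and 1137 ± 50.3 CPM in CV testes, against 0.183 ± 0.131 CPM in GF ovaries and 0.382 ± 0.0995 CPM in CV ovaries. Acbd6 was also testis-rich (195 ± 4.44, 197 ± 2.19, 21.4 ± 1.01 and 20.8 ± 1 CPM in GF testes, CV testes, GF ovaries and CV ovaries), whereas the peroxisomal Acbd5 had log2 fold changes of -0.30 in GF and -0.21 in CV mice, the CV value being -0.06 and not called with DESeq2's size factors. Per kb, Dbil5 reached 1816 in GF and 1957 in CV testes, far above Dbi. Between GF and CV testes 1 of 7 tested family genes was called higher, Dbi, and 1 lower, Dbil5 (log2 fold change -0.09), against 8.08% of all genes. DESeq2 did not call Dbil5 (adjusted p = 0.0643), and its groups overlapped. In the ovary 0 of 6 were called by edgeR and by DESeq2, with 0 at an unadjusted p under 0.05.

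**Figure D4:**
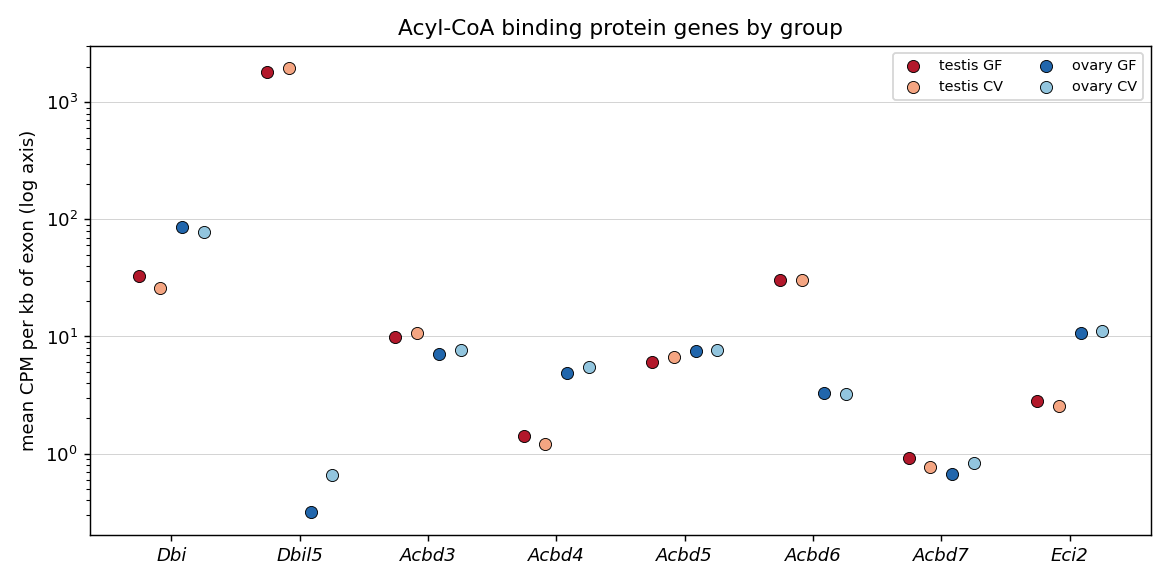
Mean level in CPM per kb of exon (logarithmic axis) of the 8 acyl-CoA binding protein genes, with testis GF, testis CV, ovary GF and ovary CV from left to right for each gene. Dbil5 spans the panel, at 1816 in GF testes and 0.314 in GF ovaries, while Dbi is higher in ovaries, at 85.6 in GF and 77.5 in CV mice.

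Genes of mitochondrial cholesterol import, TSPO partners and side-chain cleavage, the setting in which Dbi has been studied, had mostly lower testis than ovary levels. Of 9 genes, 1 was called higher and 8 lower in testes than in ovaries in GF mice, and 1 higher and 7 lower in CV mice, where 89.8% and 90.3% of all genes were called. The median log2 fold changes were -2.51 in GF and -2.30 in CV mice, beside 0.04 and 0.05 for all genes. Cyp11a1, the side-chain cleavage enzyme, had log2 fold changes of -4.39 in GF and -4.32 in CV mice, with 2467 ± 511 CPM in GF ovaries and 2204 ± 375 CPM in CV ovaries. Its electron donors Fdx1 (log2 fold change -3.04 in GF and -2.89 in CV mice) and Fdxr (-2.61 and -2.14) were likewise lower in the testis. Star, the cholesterol transfer protein, had -0.92 in GF mice (adjusted p = 0.0448) and -0.76 in CV mice (adjusted p = 0.0735), and with DESeq2's size factors it was called in neither. Of these genes 0 of 8 in the testis and 0 of 9 in the ovary were called between GF and CV by edgeR, and 0 by DESeq2, with 0 and 1 at an unadjusted p under 0.05.

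Steap3 was read beside 12 other genes of STEAP reductases and transferrin iron uptake. In testes against ovaries 2 of 13 were called higher and 10 lower in GF mice, and 2 higher and 9 lower in CV mice, together near the background share. The ferritin light chain Ftl1 had a log2 fold change of -3.04 in GF and -2.80 in CV mice, the heavy chain Fth1 -1.53 and -1.61, and transferrin (Trf) -2.46 and -2.54. Ncoa4, the receptor that takes ferritin to the lysosome, was higher in the testis, by 1.23 in GF and 1.18 in CV mice. Between GF and CV testes 3 of 13 were called, beside 8.08% of all genes tested there. Those 3 hold Steap3, already chosen for that difference, so nothing is read from the count. Beside Steap3 these were Steap2, a related reductase (23.1 ± 1.08 CPM in GF and 19.6 ± 0.942 CPM in CV testes, log2 fold change 0.25), and Ftl1 (66.0 ± 2.94 and 74.9 ± 4.09 CPM, log2 fold change -0.16). In the ovary 0 of 12 were called by edgeR or by DESeq2, with 2 at an unadjusted p under 0.05.

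The Cacng genes, the calcium channel gamma subunits to which Tmem37 is related, passed the filter on low counts in part only. Of 9 genes 5 were tested between tissues, and 4 were called higher and 1 lower in GF testes than in GF ovaries, against 3 and 1 in CV mice (2 and 2 in CV mice with library totals). The call made in GF mice alone was that of Tmem37, already chosen with its high level in GF testes known. The shares of all genes called were 89.8% in GF and 90.3% in CV mice. Cacng5 had 10.7 ± 0.623 CPM in GF testes and 12.1 ± 0.542 CPM in CV testes, against 0.192 ± 0.127 CPM in GF ovaries and 0.139 ± 0.0579 CPM in CV ovaries. Cacng8 followed it (6.13 ± 0.314 CPM in GF and 6.51 ± 0.761 CPM in CV testes), and Cacng7 was the ovary-rich member (log2 fold change -2.08 in GF and -2.09 in CV mice). Tmem37, already chosen for that difference, was the 1 gene of the 5 tested in the testis that was called between GF and CV. Of all genes tested there 8.08% were called. Of 3 tested in the ovary edgeR and DESeq2 called 0, with 1 at an unadjusted p under 0.05.

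The secretin family, to which the Sctr receptor belongs, had 7 of 12 genes tested between tissues. In GF testes 3 were called higher and 4 lower, where 89.8% of all genes were called. In CV testes 2 were called higher and 3 lower, where 90.3% were. The receptor gene Gipr was testis-rich (11.6 ± 0.841 CPM in GF and 10.6 ± 1.64 CPM in CV testes, 0.11 ± 0.109 CPM in GF and 0.0674 ± 0.0497 CPM in CV ovaries). The receptor Adcyap1r1 was ovary-rich (log2 fold change -3.93 in GF and -3.66 in CV mice), as was Vipr1 (-1.12 and -1.76). The ligand Adcyap1 had 1 count over all GF testes and 0 over all CV testes. It ran from 0 to 13.7 CPM in GF ovaries and from 0.112 to 1.87 CPM in CV ovaries. Between GF and CV mice edgeR and DESeq2 called 0 of 5 tested family genes in the testis and 0 of 6 in the ovary, with 1 and 0 at an unadjusted p under 0.05.

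Gli2 shared its direction between tissues with most of the tested hedgehog genes. Of 14 hedgehog genes tested, 2 were called higher and 11 lower in the testis, in GF and in CV mice alike, where 89.8% and 90.3% of all genes were called. The median log2 fold changes were -3.03 in GF and -3.00 in CV mice, beside 0.04 and 0.05 for all genes. Smo, the signal transducer, had -4.49 in GF and -4.59 in CV mice, the co-receptor Cdon -3.36 and -3.10, and the receptor Ptch1 -3.01 and -3.00, while Sufu, the cytoplasmic inhibitor, was higher by 2.93 and 2.96. None of 13 in the testis and none of 14 in the ovary was called between GF and CV by edgeR or by DESeq2, with 0 and 1 at an unadjusted p under 0.05.

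Among RAL regulators and effectors, Ralb's partners, 9 of 16 were called higher and 5 lower in testes than in ovaries in GF mice, and 9 and 6 in CV mice, near the background share. With library totals the counts were 6 and 10 in each. The exchange factors Ralgps2 (log2 fold change 2.43 in GF and 2.53 in CV mice), Ralgds (3.13 and 3.12) and Rgl1 (1.90 and 1.70) were higher in the testis, while the inhibitory subunit gene Ralgapa1 had 0.18 and 0.23 with TMM but -0.61 and -0.58 with library totals. Between GF and CV testes Exoc8 (0.26) and Exoc2 (-0.12), exocyst subunits that bind RAL, were the 2 of 16 called, beside 8.08% of all genes, and DESeq2 did not call Exoc2 (adjusted p = 0.0653). In the ovary edgeR and DESeq2 called 0 of the 16, with 5 at an unadjusted p under 0.05, beside 1172 of all 18095 genes.

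Ptpn4 was the 1 testis-rich gene of 5 FERM domain phosphatases. Ptpn13 (log2 fold change -2.21 in GF and -2.13 in CV mice), Ptpn14 (-2.99 and -2.85) and Ptpn3 (-3.51 and -3.59) were called lower in the testis. Of 8 genes of cytochrome c oxidase subunit 2 assembly, 3 in GF and 4 in CV mice were called higher in the testis and 2 lower in each, below the background share. With library totals 2 were higher and 5 lower in each. Cox16 stood beside Tmem177 among the higher ones (3.17 and 3.19), the copper chaperone Cox17 among the lower (-0.45 and -0.41), and Cox20 had 0.10 in GF mice (adjusted p = 0.252) and 0.29 in CV mice (adjusted p = 0.00205), the values being -0.69 and -0.51 with library totals. Of these FERM phosphatase and assembly genes edgeR and DESeq2 each called 0 of 5 and 0 of 8 between GF and CV in each tissue. Of the 5 phosphatase genes 0 had an unadjusted p under 0.05 in either tissue, and of the 8 assembly genes 2 did in the testis and 1 in the ovary.

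Genes were also ranked by how closely their level followed that of Tmem37 across the 16 libraries, after centring log2 CPM within each tissue. Since the GF over CV difference drives this measure, it is a description. Of 21976 genes the 5 named ones with the highest Pearson r were Hist1h2ae (0.942), Hist1h2bf (0.938), Ryr2 (0.938), Taf6l (0.920) and Rps15 (0.918). Steap3 had rank 15 (0.892) and Dbi rank 1686 (0.403), while Tmem177 had -0.449. Ryr2, a calcium release channel, had 8.21 ± 0.942 CPM in GF testes and 1.64 ± 0.283 CPM in CV testes, and 78.3 ± 10.2 CPM in GF ovaries and 54.5 ± 4.85 CPM in CV ovaries. Histone genes have near-identical copies, so their counts are uncertain. Hist1h2ae, Hist1h2bf and Ryr2 lie on chromosome 13, Taf6l on chromosome 19 and Rps15 on chromosome 10, and of the 30 genes at the top 12 lay on chromosome 13 and 3 on chromosome 1. By comparison 3.68% of the ranked genes lie on chromosome 13 and 5.64% on chromosome 1. When log2 CPM was centred within each of the 4 groups instead, Tmem37 had an r of 0.19 with Steap3 and of -0.09 with Dbi over the 16 libraries.

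The 9 ovaries differed in their summed level of corpus luteum markers, which was set against each gene. The 6 luteal markers summed to 1663, 1196, 847, 740 and 483 CPM in GF ovaries and 1797, 894, 822 and 1287 CPM in CV ovaries. Dbi ran against that sum, with a Pearson r of -0.63 (two-sided exact permutation p = 0.0709, adjusted over the 8 genes 0.567) and a Spearman rho of -0.70 (exact permutation p = 0.0433, adjusted 0.346). Without the 2 libraries farthest from the median sum r was -0.48, a value that was not tested. Over all 9 ovaries no relation passed the correction. For the other 7 genes r lay between -0.31 and 0.11, with exact permutation p-values, two-sided, of 0.407 and above. Neither GF nor CV ovaries alone reach 6 libraries, so no r was computed within a group.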

How the data were processed

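The values are raw counts of reads per gene as the authors deposited them, 38087 genes by 16 libraries, every column matched to a sample by its name. Per the labels' protocols, ribosomal RNA was depleted and a strand-keeping total RNA kit was used. The submitters' processing notes list STAR 2.4.0i and mm10. How reads were counted, over which annotation and with which strand setting, was not given in the sources used here. Positions and exon lengths came from GENCODE M21 (GRCm38, the assembly that mm10 denotes) by gene identifier, for 36308 of the 38087 genes. Promoters came from RefSeq (GRCm38.p6).

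Counts were fitted with edgeR 4.0.16 in R 4.3.3 (TMM scaling, edgeR's expression filter, robust quasi-likelihood F test). GF over CV was fitted on 7 testis and on 9 ovary libraries, and testis over ovary and the tissue by microbiota difference on all 16. Benjamini-Hochberg adjustment ran over all genes tested. The SE of a log2 fold change is its size divided by the square root of F. TMM factors ran from 0.725 to 0.749 in testes and from 1.248 to 1.293 in ovaries. Permutation tests used scipy 1.17.1. Fits were also run on simulated counts in which most genes had equal means in all groups. Most genes differ between these tissues, so that run does not cover the testis over ovary fits. Its outcome is not given, and nothing is read from it. Alternatives were DESeq2 1.42.0, its size factors, no filter, other sets of libraries, each library left out, the replicate number as a block, a wider stretch and, chosen after seeing the data, library totals without TMM.

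Named genes were the 8, Inhbb, Epb41l5, Cfap221, Insig2 and up to 6 called protein-coding genes of the stretch, up to 4 members of each gene list by highest mean CPM, and the 5 genes most like Tmem37. Steap2, Exoc2, Exoc8, Celrr, Dpp10, Htr5b and Cntnap5a were chosen after their values were seen. The 8 genes, the lists and the tests were chosen with earlier results of these data known.

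Replicate pairs were compared by chi-square over genes with at least 20 counts. This gave 2.37 to 5.17 per degree of freedom in testes and 6.01 to 34.3 in ovaries, above sampling noise. The coefficient of variation between replicates that edgeR fitted was 4.17% in testes and 18.5% in ovaries, so counts of calls in the 2 tissues are not on an equal footing. Each library was counted as its own sample. Deviations from the group mean of same-numbered GF and CV ovaries correlated at 0.128 to 0.288, and those of same-numbered testes at -0.0214 to 0.0227. Differently numbered libraries were not compared, so whether the replicate numbers pair the libraries cannot be told. The main fits treat the libraries as unpaired. Intervals cover counting error only.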

Additional observations from a re-analysis of the deposited data

Results flagged for a closer look

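In 3 of the 42 groups of 4 or 5 libraries examined, 1 library stood apart from the others by Dixon's criterion, which chance alone gives in about 1 group in 20. Ralb was highest in CV ovary 2, at 53.9 CPM, where the other CV ovaries had 46.2, 47.3 and 47.4 CPM. Epb41l5, the junction gene beside Ptpn4, was highest in GF ovary 1, at 88.3 CPM, where the other GF ovaries had 44.1, 39.8, 52.9 and 43.2 CPM. Nifk was lowest in CV testis 4, at 24.9 CPM, where the other CV testes had 28.8, 29.1 and 28.5 CPM.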

How the results depend on the processing

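In the testis, Tmem37, Steap3 and Dbi kept their GF over CV sign in every alternative run, with log2 fold changes of 1.61 to 1.84, 1.17 to 1.37 and 0.32 to 0.38 when single libraries were left out. In the fit over all 16 libraries Dbi was not called, leaving 2 of the 8 genes called. Of the stretch, 5 genes were called in the testis in the tissue's own fit, 2 in the fit over all 16 libraries, 8 within the 10 Mb stretch and 3 to 4 with 1 library left out (3 without GF testis 1). In the ovary 1 was called in the fit over all libraries and 1 within the 10 Mb stretch, against 0. For the tissue by microbiota difference DESeq2's Wald test called 2 of the genes and leaving out single libraries gave 0 to 1 (1 without GF ovary 1). Gli2 in the testis ran from -0.08 (without GF testis 1) to 0.24 (without GF testis 3).

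Tmem37 between CV testes and CV ovaries changed sign with library totals, to -0.51, and was called at 0.45 with DESeq2's size factors and Wald test. The correlations with luteal markers changed sign when single ovaries were left out, from -0.62 to 0.21 for Tmem37, -0.21 to 0.07 for Sctr, -0.67 to 0.05 for Ptpn4, -0.12 to 0.38 for Gli2, -0.22 to 0.13 for Tmem177, -0.74 to 0.10 for Ralb and -0.52 to 0.09 for Steap3, while Dbi stayed between -0.67 and -0.56. The causes were not tested.

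With the replicate block no call of the 8 genes changed: 3 were called higher in GF testes and 0 in GF ovaries, with log2 fold changes of 1.85 for Tmem37, 1.37 for Steap3 and 0.35 for Dbi in the testis, and 4 genes of the stretch were called there. Whether the replicate numbers pair the libraries of either tissue cannot be told. Depth limits Sctr, Gli2 in the testis and Celrr, whose counts per library are low.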

Other observations

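Some family genes that were not called had GF and CV groups without overlap in the testis, a pattern shared by 17.4% of genes tested there. They were picked after their values were seen. Sct, which encodes the ligand of the Sctr receptor, had 1.49 ± 0.206 CPM in GF testes and 0.894 ± 0.0878 CPM in CV testes (SD, n = 3 and 4), the same direction as the receptor. Cox20, a partner of Tmem177 in human cells, had 22.5 ± 0.563 CPM in GF testes and 25.4 ± 0.938 CPM in CV testes, the same direction as Tmem177. Acbd5 had 59.0 ± 1.2 CPM in GF testes and 64.7 ± 1.78 CPM in CV testes, the direction opposite to Dbi. Acbd3 (67.1 ± 0.82 and 71.7 ± 1.35 CPM in GF and CV testes) also ran opposite to Dbi. Cacng5 (10.7 ± 0.623 and 12.1 ± 0.542 CPM) ran opposite to Tmem37. Tfr2 (4.45 ± 0.0338 and 3.97 ± 0.413 CPM) had the direction of Steap3, while Cdon and Ralgps2 were lower in GF testes. No agreement between partners is read from these genes.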
